A study of Homo sapiens with 3 samples.

Results

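The collagen genes were followed as one gene family through the promoter contacts called in cardiomyocytes derived from human embryonic stem cells (hESC-CMs). A collagen gene was any gene annotated in GENCODE release 44, lifted to GRCh37, whose symbol is COL followed by a type number, A and a chain number; 44 such genes were counted among 20098 protein-coding genes on the autosomes and the X chromosome. A promoter fragment was a HindIII restriction fragment that was listed as a captured promoter in any replicate and holds an annotated transcript start of the gene. By this rule 41 collagen promoter fragments were found among 19075 promoter fragments, and they belonged to 38 of the 44 genes (86.4%), against 77.2% of all protein-coding genes. Of the 41 fragments, 3 also hold a start of another protein-coding gene: RDH8 with COL5A3, LMBRD1 with COL19A1, and ARFGAP1 with 1 COL20A1 fragment. Some other fragments, that of COL1A2 among them, also hold a start of a gene that is not protein-coding. Contacts of a fragment with starts of several genes cannot be assigned to 1 of them.

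Promoter capture Hi-C, which joins DNA fragments that lie close together in the nucleus and then enriches the products that carry a promoter, was done on 3 replicates of hESC-CMs. All 3 were made from the same line, H9 (WA09), with a commercial cardiomyocyte differentiation kit and lactate enrichment, and all were of a single condition, with no other cell type, treatment or control beside them. No test between groups could therefore be made, and while the study calls them biological replicates, the labels do not say whether they were separate differentiations. The files hold contacts only, with no expression values, so the cardiomyocyte identity could not be checked against marker genes here. The study itself describes a purity check before fixation, by flow cytometry and quantitative PCR of cardiomyocyte markers, that did not require pure cultures.

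Collagens are triple-helical proteins of the extracellular matrix. Fibrillar collagens, with types I and III the main ones in the heart, form the load-bearing fibres of the interstitium, type IV collagens form the network of basement membranes around cardiomyocytes and vessels, type VI forms beaded filaments, fibril-associated collagens with interrupted triple helices (FACITs) sit on fibre surfaces, and transmembrane collagens are anchored in the plasma membrane. Several collagen genes lie head to head, so that a promoter region can serve a pair of chains of the same protein. Others lie side by side, with separate promoters.

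Each contact carries a CHiCAGO score, which rises with the excess of read pairs over the number modelled for that distance and those fragments. The lists hold contacts scored 5 or more, so a contact that is not listed in a replicate scored lower there and cannot be called absent. An interaction here is a pair of fragments irrespective of order, a partner is the fragment at the other end, and distances run between fragment midpoints.

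The highest-scoring partners of collagen promoters, by mean score among those called in all 3 replicates, were 26 different fragments. Of these, 3 were under 300 bases and short enough to show whole. The contacts are not placed to these bases alone, because adjoining fragments were also called with the same promoters. The 3 fragments are printed 5′ to 3′ on the plus strand of GRCh37, with the HindIII remnant at the left end in capitals. The COL23A1 partner at chr5:177710360-177710631 lies in a COL23A1 intron, the COL27A1 partner at chr9:117053361-117053523 lies in a COL27A1 intron, and the COL9A1 partner at chr6:71718933-71719161 is intergenic, between B3GAT2 and OGFRL1.
COL23A1 partner: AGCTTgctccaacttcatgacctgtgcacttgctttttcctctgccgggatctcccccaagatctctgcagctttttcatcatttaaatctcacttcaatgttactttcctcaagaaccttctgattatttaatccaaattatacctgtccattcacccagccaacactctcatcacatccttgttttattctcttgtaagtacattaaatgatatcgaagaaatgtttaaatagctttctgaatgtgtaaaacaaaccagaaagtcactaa
COL27A1 partner: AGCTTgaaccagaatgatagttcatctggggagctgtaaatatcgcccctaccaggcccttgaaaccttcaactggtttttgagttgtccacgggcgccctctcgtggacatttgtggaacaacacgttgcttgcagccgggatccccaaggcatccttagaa
COL9A1 partner: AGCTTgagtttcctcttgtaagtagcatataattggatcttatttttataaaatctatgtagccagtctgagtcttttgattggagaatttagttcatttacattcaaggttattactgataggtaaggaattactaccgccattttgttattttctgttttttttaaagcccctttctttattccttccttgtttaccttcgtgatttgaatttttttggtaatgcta
These fragments are 272, 163 and 229 bases long, and their G and C content is 37.1%, 51.5% and 30.6%.

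Promoter sequence is shown for the COL12A1 promoter, which had the most contacts, and for the COL23A1 promoter, which had the highest-scoring partner on its own chromosome. Each run is the 250 bases before the RefSeq transcript start (table build GRCh38.p14), found by exact match in the gene's promoter fragment on GRCh37 at chr6:75915770-75916019 and at chr5:178017395-178017644, and both are read from the minus strand. Capitals mark GGGCGG, the GC box, or its reverse complement.
COL12A1 promoter: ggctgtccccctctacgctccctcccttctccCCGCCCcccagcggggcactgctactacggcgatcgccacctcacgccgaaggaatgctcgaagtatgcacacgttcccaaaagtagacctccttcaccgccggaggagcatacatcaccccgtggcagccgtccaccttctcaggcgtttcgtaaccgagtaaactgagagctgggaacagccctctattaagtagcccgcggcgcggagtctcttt
COL23A1 promoter: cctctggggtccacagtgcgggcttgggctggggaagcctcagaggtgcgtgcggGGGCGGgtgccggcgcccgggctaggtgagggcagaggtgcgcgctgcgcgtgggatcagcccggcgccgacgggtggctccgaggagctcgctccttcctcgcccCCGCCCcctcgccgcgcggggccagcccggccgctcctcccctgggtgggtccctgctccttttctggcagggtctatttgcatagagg
The COL12A1 run holds 1 GC box and the COL23A1 run holds 2. The RefSeq table gave 44 windows of 300 bases (250 before and 50 after the start) for 32 of the 44 collagen genes. On either strand, GGGCGG was in 54.5% of these windows against 45.0% of all 35116 windows, CCAAT in 31.8% against 34.6%, and TATAAA, the TATA box, in 18.2% against 11.5%. Some genes had several windows, and only 25 windows, of 24 genes, lay whole in a promoter fragment of their gene. In these 25 windows GGGCGG was in 15, CCAAT in 7 and TATAAA in 2, so that for TATAAA the collagen share was then below the overall one. Each motif was searched on its own, so matches of different motifs may share letters at their ends, and a match describes the sequence only.

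Collagen promoters made 491 of the 200587 interactions listed in at least 1 replicate. Of these, 161 were called in all 3 replicates (32.8%, Wilson 95% interval 28.8 to 37.1), against 24.0% of the interactions of all promoter fragments. Another 90 recurred in 2 replicates, while 240 came from 1 replicate only. The COL12A1 promoter alone supplied 45 of the 161, and without it the share was 28.7% (24.5 to 33.3). These intervals cover counting error only, and neighbouring fragments are not independent.

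The replicates gave 306, 286 and 311 collagen interactions (301 ± 13.2, SD, n = 3). Of the collagen calls of each replicate, 52.6%, 56.3% and 51.8% were called in all 3 (53.6% ± 2.40), against 42.9%, 43.9% and 43.5% of the calls of all promoters. The collagen share was the higher of each pair, but the 3 pairs are not separate results. The same interactions, those called in all 3 replicates, stand behind each collagen share. These shares and their SD therefore vary only with the number of calls in each list, and COL12A1 is included. Recurrence rose with the score: 21.1% of the 299 collagen calls scored from 5 to below 6 were in all 3 replicates, 54.9% from 6 to below 8, 71.8% from 8 to below 10, 89.3% from 10 to below 20, and all 24 calls of 20 or more. For all promoters the shares in the same score ranges were 19.4%, 40.6%, 62.5%, 80.0% and 91.6%. Each interaction in all 3 replicates enters these shares as 3 calls. The collagen shares by score were not computed without COL12A1. Its 45 interactions in all 3 replicates had a median mean score of 12.15. The value was 7.662 for the other collagen interactions in all 3 and 8.317 for those of all promoters. COL12A1 calls therefore lie more in the higher score ranges, and the size of their part in these shares was not computed.

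At the level of genes, 26 of the 44 collagen genes (59.1%, Wilson interval 44.4 to 72.3) had an interaction called in all 3 replicates. The share was 43.2% for protein-coding genes, just below that interval. Of the 41 promoter fragments, 27 (65.9%, Wilson interval 50.5 to 78.4) had such an interaction, against 51.9% of all promoter fragments. The interval for fragments includes 51.9%, so this count does not separate collagen promoter fragments from all promoter fragments. A collagen promoter fragment had 12.0 partners on average with a median of 8, and all promoter fragments had 11.5 with a median of 6. The family was uneven. The 5 promoter fragments with the most recurrent interactions, those of COL12A1, COL4A5, COL6A3, COL11A1 and COL23A1, held 90 of the 161 (55.9%), and 11 fragments had 5 or more.

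**Figure D1:**
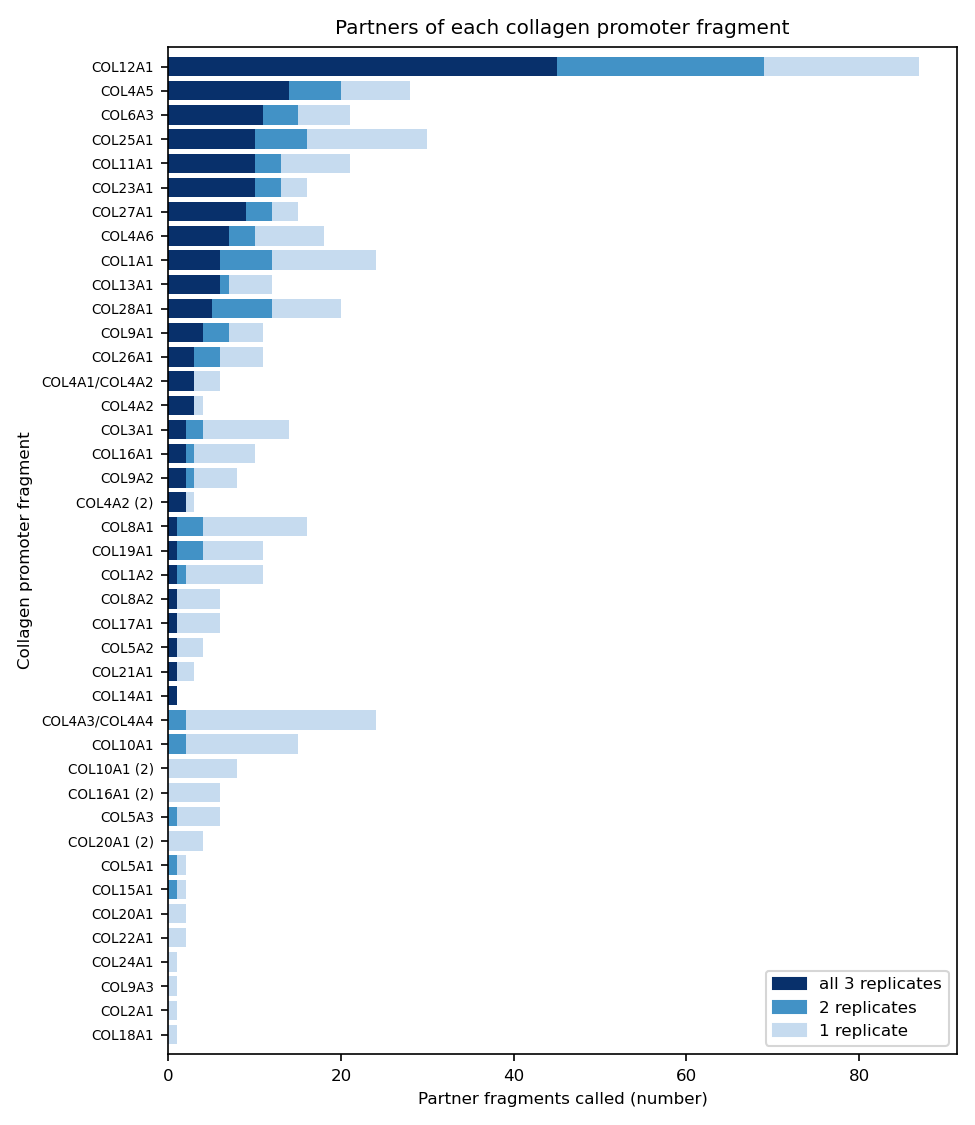
Number of partner fragments of each of the 41 collagen promoter fragments (horizontal axis), split by whether the interaction was called in all 3, in 2 or in 1 of the replicates; (2) marks a further promoter fragment of the same gene. The COL12A1 bar, with 87 partners, stands far to the right of the others, the next being COL25A1 with 30, and the 14 fragments at the bottom have no interaction called in all 3 replicates.

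The median distance of the collagen interactions within a chromosome was 469.5 kb, against 716.4 kb for all promoters, and 62.1% lay within 1 Mb, against 55.7%. Among interactions called in all 3 replicates the medians were 423.1 kb for collagens and 395.3 kb for all promoters, and the collagen median fell to 251.1 kb once COL12A1 was left out. Interactions with another chromosome were 19 of 491 (3.87%), the same share as for all promoters (3.87%). Counted once per promoter, 92 of the 492 partners (18.7%) lay inside the gene whose promoter contacted them, as did 41 of 162 in all 3 replicates (25.3%). Over interactions listed in at least 1 replicate, the share was 5.24% for all protein-coding promoters. It was not computed for their interactions in all 3 replicates, so the 25.3% has no matched value. The contacts inside the own gene were concentrated: COL25A1, COL4A6, COL27A1 and COL23A1 had 70 of the 92, 30 of the 41 promoter fragments had none, and the share without these 4 was 5.33% (22 of 413). Collagen genes were longer, with a median of 145 kb against 27.3 kb. The part of gene length in the share was not tested.

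**Figure D2:**
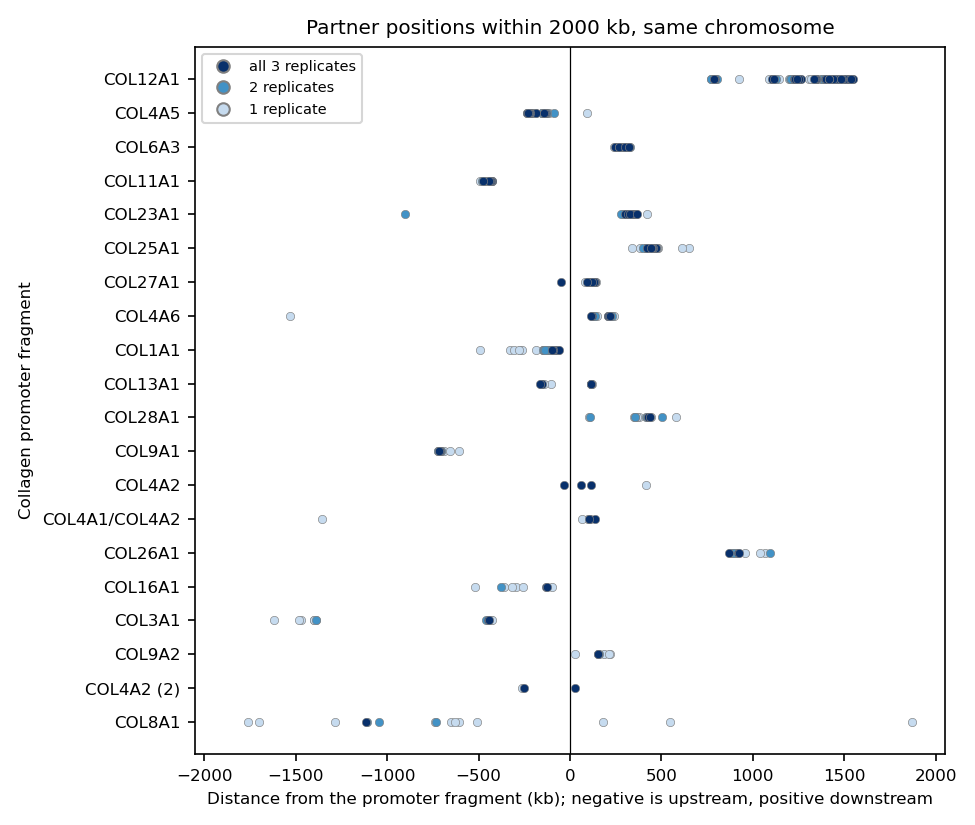
Position of each partner within 2000 kb on the same chromosome, as the distance from the promoter fragment in kb (negative upstream, positive downstream in the direction of transcription), for the 20 collagen promoter fragments with the most interactions called in all 3 replicates. Points are partner fragments, darker where more replicates called them; for COL4A1/COL4A2, whose starts face apart, positive runs into COL4A2. Partners of most promoters lie in 1 or 2 tight runs to 1 side: COL12A1 from 770 kb downstream, COL25A1 and COL23A1 mostly inside their own genes, COL11A1 and COL9A1 upstream.

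Among the fibrillar collagens, 6 of 11 genes had an interaction called in all 3 replicates, and the class held 29 of its 99 interactions in all 3. COL11A1, a chain of type XI collagen that helps set fibril diameter, had 21 partners, 10 of them in all 3 replicates. Of these, 9 formed a run in the intergenic stretch on the side of RNPC3, 426.8 to 473.9 kb upstream of the promoter. The strongest, chr1:104003974-104004753, scored 22.60, 25.25 and 26.47 (24.8 ± 1.98, SD, n = 3), and its neighbours on either side scored 14.7 ± 2.00 and 12.7 ± 5.37. The scores of the top fragment were above those of both neighbours in every replicate.

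COL11A1 also had the only collagen interaction with another chromosome that was called in all 3 replicates. Its partner, chr11:86764436-86767463 in an intron of TMEM135, scored 41.43, 39.44 and 9.86, so that replicate 3 stood far below the others (30.2 ± 17.7). The merged replicates scored it 25.56. The promoter fragment and this partner shared 0 of 3004 stretches of 25 bases. Of the 10 recurrent partners of COL11A1, the fragment chr1:104002028-104003973 had a copy elsewhere in the genome, at 100% identity over 82.8% of its length, so its reads may not all be assignable.

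COL1A1, which encodes the main chain of type I collagen, had 24 partners, every one upstream. The replicates called 13, 8 and 21 of them (14.0 ± 6.56), a wider spread than for most collagen promoters, and 6 were called in all 3. These 6 were neighbouring fragments 60.97 to 99.50 kb upstream, over TMEM92 and towards XYLT2. The strongest was chr17:48344752-48347283 with scores of 21.19, 15.33 and 19.89 (18.8 ± 3.08), and the adjoining fragment, which holds a TMEM92 start, scored 16.52, 16.89 and 18.67 (17.4 ± 1.15). These 2 fragments did not differ beyond their spread. COL1A2, the other chain of type I collagen, had 11 partners of which 1 was in all 3 replicates, a fragment with the start of ASB4 1091 kb downstream that scored 13.48, 7.49 and 13.13.

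COL3A1 and COL5A2, which encode chains of the fibril-forming types III and V and whose promoter fragments lie 209.1 kb apart on chromosome 2, reached the same place in GULP1. The intronic fragment chr2:189390354-189391635 was called in all 3 replicates from both. It scored 10.84, 5.10 and 10.54 with COL3A1 (8.83 ± 3.23), 448.2 kb away. With COL5A2, 657.3 kb away, it scored 8.01, 5.69 and 6.55 (6.75 ± 1.17), and the ranges overlap. The pair shared 3 partners in all, 21.4% of the 14 of COL3A1 and 75.0% of the 4 of COL5A2. This fragment was listed with 7 promoter fragments altogether.

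COL27A1, a fibrillar collagen of cartilage, had 15 partners, 14 of them inside COL27A1 itself, and 9 in all 3 replicates. The 163-base fragment printed above was the strongest, with scores of 14.34, 11.46 and 14.01 (13.3 ± 1.58) at 135.0 kb. The next, which adjoins it, scored 10.93, 9.32 and 8.14 (9.46 ± 1.40), so the shorter fragment was higher in each replicate. No interaction in all 3 replicates was listed for COL2A1, COL5A1, COL5A3 or COL24A1, which had 1, 2, 6 and 1 partners. The only COL5A1 promoter fragment lies inside the gene and holds no start of a protein-coding transcript. The 5′ start of COL5A1 is on no listed promoter fragment, so these partners do not describe it. The COL5A3 promoter fragment, which also holds a start of RDH8, contacted chr17:30868786-30871421 in MYO1D on another chromosome. The scores were 13.21 and 13.78 in replicates 2 and 3, and the contact was not in the merged calls. That partner shared 6 of 2612 stretches of 25 bases with the COL5A3 promoter fragment.

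The 6 type IV genes had 82 interactions, 28 of them in all 3 replicates, and their median distance, 216.1 kb, was shorter than that of the whole family. COL4A5 and COL4A6 stand head to head on the X chromosome and encode chains of the same network. Their promoter fragments adjoin, and that of COL4A5 is 327 bases long against 13330 for COL4A6. COL4A5 had 28 partners, 14 in all 3 replicates, and all 14 lay upstream, in the body of COL4A6. COL4A6 had 18 partners, 7 in all 3, all 7 within its own gene.

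The 2 promoters shared 14 partners, 77.8% of the 18 of COL4A6 and 14 of the 28 of COL4A5, and 5 of the shared ones were called in all 3 replicates from each. The top COL4A5 partner, chrX:107468024-107471712 in a COL4A6 intron, scored 18.39, 15.46 and 16.52 with COL4A5 (16.8 ± 1.48). The same fragment scored 6.82, 9.26 and 8.28 with COL4A6 (8.12 ± 1.23), with no overlap between the 2 promoters. At chrX:107464781-107468023 the values were 15.65, 13.59 and 13.48 for COL4A5 and 9.51, 7.24 and 9.29 for COL4A6. At chrX:107552677-107555022 they were 13.57, 14.37 and 12.04 for COL4A5 against 5.09, 9.87 and 9.09 for COL4A6. At these 3 fragments the COL4A5 scores were the higher in every replicate, but not at the other 2 that both promoters called in all 3. At chrX:107464453-107464780 COL4A5 scored 6.99, 7.65 and 6.05 and COL4A6 scored 6.47, 5.84 and 7.51. At chrX:107455953-107456942 COL4A5 scored 7.27, 5.80 and 5.26 and COL4A6 scored 5.28, 6.27 and 6.90, with nearly equal means of 6.11 and 6.15. How far the unequal length of the promoter fragments enters the scores was not tested.

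**Figure D3:**
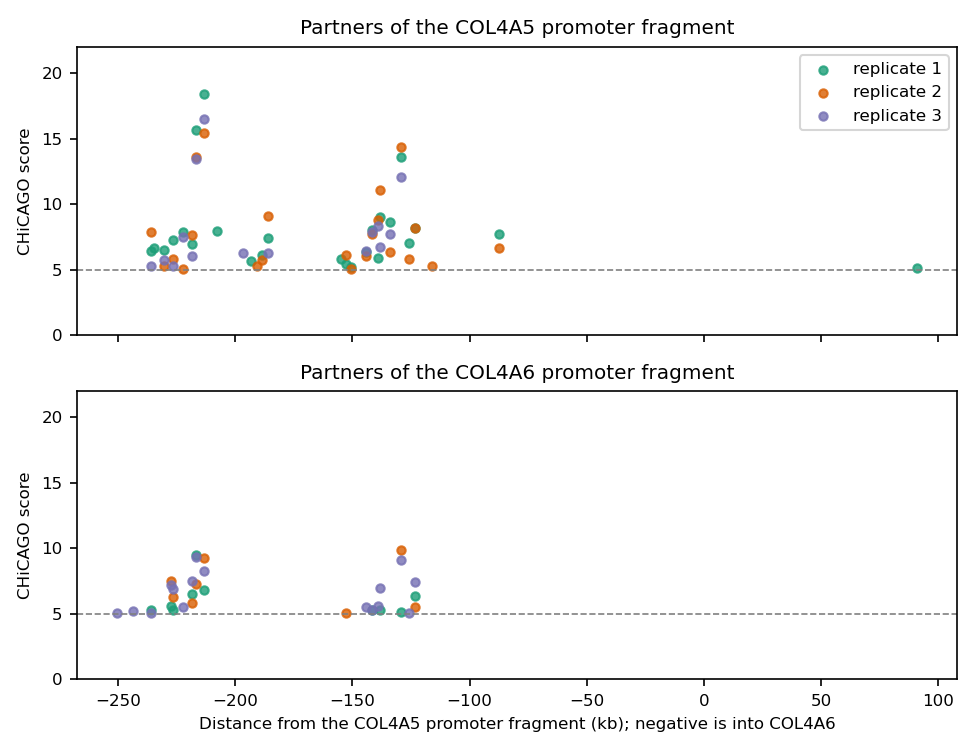
CHiCAGO score of each called partner in each replicate (points) for the COL4A5 promoter fragment (upper panel) and the COL4A6 promoter fragment (lower panel), against distance from the COL4A5 promoter fragment in kb; partners within 300 kb are drawn and the dashed line is the lowest score listed, 5. Both promoters have 2 runs of partners inside COL4A6, and the COL4A5 scores reach 18.39 while those of COL4A6 stay below 10.

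COL4A1 and COL4A2, the most widespread chains of basement membranes, start from 1 shared promoter fragment. It had 6 partners, and the 3 in all 3 replicates all lay in introns of COL4A2, 105.1 to 138.6 kb away. The highest scored 7.93, 8.59 and 6.73 (7.75 ± 0.943). Further starts within COL4A2 lie on 2 more promoter fragments, which contacted each other over 30.38 kb with scores of 5.09, 6.39 and 6.63. One of these fragments also holds a start of COL4A2-AS1 and the other a start of COL4A2-AS2. The fragment with the COL4A2-AS1 start had its strongest contact with a fragment that holds the start of RAB20, 61.96 kb away. It scored 13.22, 11.01 and 15.96 (13.4 ± 2.48). COL4A3 and COL4A4, chains of the glomerular and other specialised basement membranes, share a promoter fragment with another pattern: 24 partners, of which 22 were in 1 replicate, 2 in 2 and 0 in all 3. The replicates called 5, 8 and 13 of them.

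Type VI collagen, the beaded filament, was represented by COL6A3 alone. COL6A3 had 21 partners, 11 in all 3 replicates, and 20 of the 21 lay in 1 run of 90.10 kb from the intergenic stretch downstream of the gene into COPS8. The strongest was chr2:238070671-238072524, with scores of 11.97, 11.86 and 11.40 (11.7 ± 0.302) at 251.1 kb. The replicates called 15, 17 and 15 partners. No promoter fragment was listed for COL6A1, COL6A2, COL6A5 or COL6A6, nor for COL7A1 of anchoring fibrils or COL11A2. The starts of COL7A1 and COL11A2 each lie on a fragment listed only as a partner. A promoter without a listed contact cannot be told here from one that was not captured.

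The FACIT class held 146 interactions of 10 genes, 56 of them in all 3 replicates, and 7 genes had one of these. COL12A1, whose product binds the surface of type I fibrils, had 87 partners, called as 66, 67 and 68 in the 3 replicates (67.0 ± 1.00). It ranked 123 among 19075 promoter fragments by all partners and 48 by the 45 called in all 3. Its 86 partners on the same chromosome all lay downstream, from 769.9 to 1548 kb, beyond the end of the gene and with none inside it.

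All but 1 of these 86 partners fell into 4 runs. The farthest, chr6:74360315-74606397, covered SLC17A5 and CD109 with 51 partners, 28 in all 3 replicates. The other runs, between CD109 and COL12A1 in a stretch with no protein-coding gene, held 15, 9 and 10 partners, with 8, 5 and 4 in all 3. By the mean over replicates the strongest partner was in the nearest run, at chr6:75119702-75122075, with 20.74, 29.74 and 20.92 (23.8 ± 5.15). It led in replicate 2 only: the top score of replicate 1 was 26.09, in the farthest run, and that of replicate 3 was 24.50, in the run next to it. The order of the runs by their highest score therefore changed between replicates.

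The runs differed in how many other promoters were listed with them. All 10 partners of the nearest run were listed with COL12A1 alone, as were 8 of 9 and 13 of 15 in the next ones, but only 9 of the 51 around CD109 and SLC17A5. The promoter of the neighbouring gene COX7A2, named after its values were seen, shared 40 partners with COL12A1, which is 46.0% of those of COL12A1 and 45.5% of those of COX7A2. Of these, 15 were called in all 3 replicates from both. The sharing was not with COX7A2 alone. The promoter fragment of FILIP1 shared 32 partners with COL12A1 (36.8% of those of COL12A1) and that of TMEM30A shared 15 (17.2%), both also named after their values were seen.

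**Figure D4:**
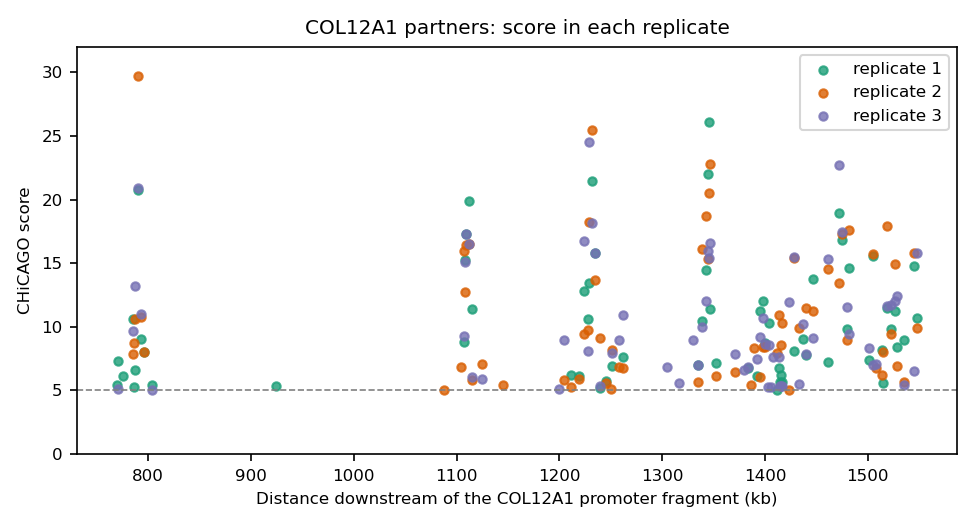
CHiCAGO score of each COL12A1 partner in each of the 3 replicates (points, coloured by replicate) against distance downstream of the promoter fragment in kb; the dashed line is the lowest score listed, 5. The partners gather in 4 runs between 770 and 1548 kb, and the highest score lies in a different run in each replicate, at 26.09, 29.74 and 24.50.

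COL9A1, a chain of the cartilage FACIT type IX, had 11 partners, all upstream, 4 of them in all 3 replicates at 708.3 to 714.2 kb. Among these 4 the strongest by mean was the 229-base fragment printed above, which scored 6.58, 11.61 and 9.82 (9.34 ± 2.55). Its neighbour on one side scored 8.05, 6.58 and 7.32. The neighbour on the other side scored 13.51 and 6.83 in replicates 1 and 2 and was not listed in replicate 3. The order of the 3 changed between replicates. COL16A1 contacted SPOCD1 at 12.29, 11.66 and 11.46 (11.8 ± 0.433). This contact was from a promoter fragment near the 3′ end of COL16A1, which also holds a start of PEF1-AS1. The promoter fragment at the 5′ start of COL16A1 had 6 partners and 0 in all 3 replicates. COL9A2 had 2 recurrent partners between PPT1 and RLF. COL14A1, COL19A1 and COL21A1 had 1 each, near DEPTOR, inside COL19A1 and near PRIM2. The COL14A1 promoter fragment holds no start of a protein-coding transcript. Counting protein-coding starts alone, 25 collagen genes had an interaction in all 3 replicates. COL9A3, COL20A1 and COL22A1 had no interaction in all 3 replicates.

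All 4 transmembrane collagen genes had interactions called in all 3 replicates, 27 of 64. COL23A1 had 16 partners, 10 in all 3, which ran from the 3′ part of the gene into PHYKPL, 301.2 to 366.5 kb downstream. The 272-base intronic fragment printed above scored 32.38, 27.83 and 27.19 (29.1 ± 2.83). The adjoining fragment scored 25.63, 23.97 and 20.93 (23.5 ± 2.38), lower in each replicate. Away from it the means went down to 6.97 ± 0.488 at 327.8 kb, were 14.1 ± 2.44 at a fragment with a PHYKPL start 358.5 kb away, and ended at 5.51 ± 0.106.

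COL25A1, found in neurons and in amyloid plaques, had 30 partners, 28 of them within its own gene. The replicates called 20, 20 and 16, and 10 were in all 3, at 418.7 to 468.4 kb. Its strongest partner, chr4:109751373-109753508, scored 11.53, 14.45 and 9.11 (11.7 ± 2.67), and the next scored 7.87, 13.17 and 12.28 (11.1 ± 2.84), so that these 2 did not differ beyond their spread. COL13A1, found at cell junctions and the neuromuscular synapse, had 6 recurrent partners, 4 upstream and 2 inside the gene, led by 11.66, 9.00 and 10.47 (10.4 ± 1.33). COL17A1, of hemidesmosomes, had 1, at the start of CFAP43.

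In the remaining classes, COL28A1 had 20 partners with 5 in all 3 replicates, all 5 between CCZ1B and C1GALT1, the strongest at 12.09, 12.53 and 14.75 (13.1 ± 1.43). COL26A1 had 3 recurrent partners over CUX1 and SH2B2, 872.0 to 923.7 kb away. The short-chain collagens had 45 interactions and only 2 in all 3 replicates (4.44%). COL8A1, a vessel wall collagen, contacted the start of CLDND1 at 5.49, 11.25 and 23.43 (13.4 ± 9.16), the widest spread among the top partners on the same chromosome. COL8A2 contacted the start of OSCP1 at 6.04, 5.53 and 6.82. COL10A1, of hypertrophic cartilage, had 23 partners from 2 promoter fragments and 0 in all 3. The multiplexins COL15A1 and COL18A1, both of basement membrane zones, had 3 interactions and 0 in all 3.

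**Figure D5:**
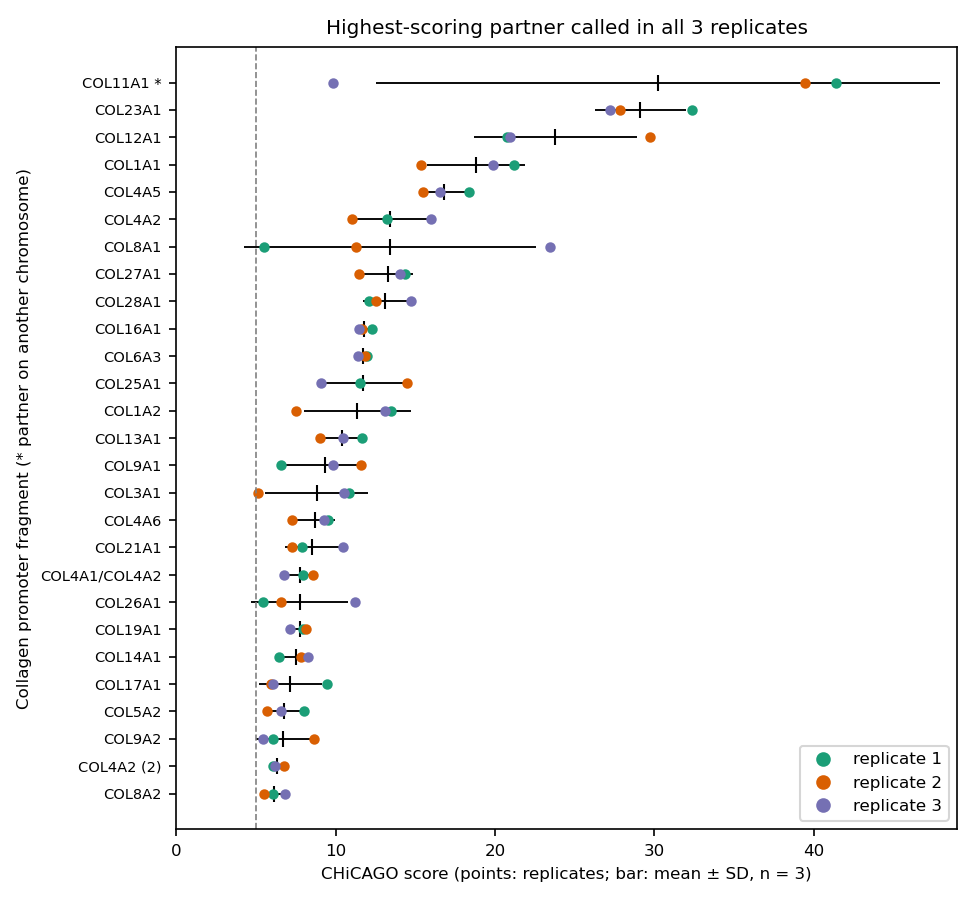
CHiCAGO score in each replicate (points) with the mean and SD (bar, n = 3) of the highest-scoring partner called in all 3 replicates, for the 27 collagen promoter fragments that had one; the dashed line is the lowest score listed, 5, and the star marks a partner on another chromosome. Replicates lie close together for COL6A3 and COL16A1 and far apart for COL11A1, where replicate 3 is at 9.86, and COL8A1.

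Partner fragments were also read for the core consensus of CTCF, the factor found at many loop anchors. A match was present in 6 of 156 different collagen partners called in all 3 replicates (3.85%) and in 4.15% of all 35899 such partners. By fragment length the comparison had no single direction. The collagen and overall values were 6.45% and 2.11% from 1000 to below 2000 bases, 4.84% and 4.02% from 2000 to below 5000, and 3.70% and 10.4% from 5000 on, with 2, 3 and 1 collagen fragments behind them. None of the 18 collagen partners under 500 bases, nor of the 18 from 500 to below 1000, held a match, against 0.430% and 1.15% of all partners. None of the 26 top partners held a match, which says only that no exact fit is in those fragments. Near matches were not counted, and the COL27A1 partner printed above holds one, gccctctcgtgg, read on the other strand. Of the 41 promoter fragments none, and of the 156 recurrent partners 1, the COL11A1 fragment named above, had a copy elsewhere at 95% identity or more over at least 50% of its length.

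Genes that make, modify, bind or cut collagens were set beside the family as a list of 48. Of these, 42 had a promoter fragment and 16 (33.3%) had an interaction called in all 3 replicates, against the 43.2% of protein-coding genes given above. By role these were 7 of 25 genes of synthesis and processing, 1 of 5 of cross-linking, 4 of 9 receptors, 3 of 4 fibril-binding proteoglycans and 1 of 5 collagenases. PLOD2, a lysyl hydroxylase that prepares collagen for cross-links, had the most, 36 of 146, and its top partner scored 25.66, 22.23 and 23.06. The collagen-binding integrin chain ITGA10 had 20 of 53, the collagenase MMP14 had 17 of 22, and the collagen receptor DDR1 had 12 of 36. ITGB1, the beta chain shared by the collagen-binding integrins, COLGALT2, a collagen galactosyltransferase, and P3H3, a prolyl hydroxylase, tied at 7. No gene of the list had a promoter fragment in contact with a collagen promoter fragment.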

How the data were processed

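Promoter capture Hi-C was analysed for 3 replicates of hESC-CMs and for the authors' calls on the merged replicates. The authors mapped and filtered reads with HiCUP against GRCh37, called contacts with CHiCAGO at default settings, and deposited per contact the promoter fragment, the partner and a CHiCAGO score of at least 5. Read depth per replicate is not in these call lists and was not analysed here, so scores carry no count behind them.

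Here, calls were joined over replicates as unordered fragment pairs (27 of the 491 collagen interactions were listed only with the collagen fragment in second place), and fragments were annotated with GENCODE release 44 lifted to GRCh37. Runs were partners less than 20 kb apart. Named are the genes of the 25 collagen promoter fragments with most interactions in all 3 replicates, collagen promoters that touch or share partners, contacts with another chromosome in all 3 replicates, genes without a promoter fragment, and the leading genes of the list of 48. The remaining collagen genes, COL8A2 and COL5A3 with their scores among them, are named to account for every member, after their values were seen. Members and lists were chosen with earlier results of these data known. The counting steps were tested on simulated calls. Python 3.11.15, numpy 2.4.6, matplotlib 3.10.9 and minimap2 2.31-r1302 were used. Alternatives were higher score limits, leaving out each replicate, merged calls, ordered pairs, protein-coding starts, same-chromosome pairs and a tolerance of 5 kb.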

Additional observations from a re-analysis of the deposited data

How the results depend on the processing

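With a score of at least 7, collagen interactions numbered 223, with 6.758 partners per promoter fragment, a median distance of 654.5 kb, 16 genes with an interaction in all 3 replicates, 17.04% inside the own gene, 2.242% with another chromosome and 7 fragments shared between collagen genes (17 at a score of 5). With a score of at least 10 the values were 96, 4.364, 1079 kb, 10, 15.62%, 2.083% and 0, 37.50% recurred in every replicate, and the list of 48 had 8 genes with such an interaction. Leaving out each replicate gave ranges of 44.16 to 49.49% for the share called in all remaining replicates, 10.18 to 10.72 partners, 442.5 to 457.7 kb, 19.39 to 19.56% inside the own gene and 2.804 to 4.040% with another chromosome; a share over 2 replicates is higher by construction. The merged calls gave 12.88 partners, 319.7 kb, 29.72% and 0.2358%. Same-chromosome pairs alone gave 19.28% inside the own gene, protein-coding starts gave 12.54 partners, and a tolerance of 5 kb gave 49.69% in all 3. Without the COL12A1 promoter fragment, an alternative chosen after seeing the data, the share in all 3 was 28.71%, with 10.12 partners, 417.5 kb and 22.52% inside the own gene. Other combinations, 42 of 83, moved by less than the spread between replicates or 1.5 times a count. The cause of these changes was not tested. No paired analysis was possible because there is 1 group and no test. Read depth was not analysed here, and a contact missing from a list may have been below the score limit.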

Other observations

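The calls on the merged replicates held 424 interactions of collagen promoter fragments. Of these, 87 (20.5%) were in no single replicate. All 161 interactions called in all 3 replicates were also called on the merged data, as were 93 of the 240 called in 1 replicate (38.8%). Merged-only calls numbered 9 for COL6A3, 7 each for COL4A5, COL23A1, COL27A1 and COL28A1, and 3 for COL12A1. COL4A3 and COL4A4, with 24 interactions over the replicates, had 4 on the merged data, and the COL10A1 promoter fragments, with 15 and 8, had 1 and 0.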
